A study of Rattus norvegicus with 56 samples.

Results

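The miR-17-92 cluster and its paralogues, the miR-106b-25 and miR-106a-363 clusters, encode the 6 listed mature miRNAs described here, of 367 in the deposited counts. These were rno-miR-17-5p, rno-miR-18a-5p, rno-miR-20a-5p, rno-miR-20b-5p, rno-miR-93-5p and rno-miR-106b-5p. They were grouped by the genomic clusters that encode them, and chosen with earlier results of these data known. A further 7 listed 5p arms come from the same clusters and are described separately. The counts came from small RNA sequencing of the rat hippocampus after fluid percussion injury, a pressure pulse that models traumatic brain injury (TBI), or after sham surgery. The 56 animals were divided equally, with 4 injured and 4 sham-operated rats at each of 24 h, 2 weeks, 1 month, 2 months, 3 months, 6 months and 1 year, so that every interval had its own sham group. Strain, sex and age are not given in the sources used here.

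A polycistronic miRNA cluster is transcribed as a long primary RNA that is cut into several hairpins, each of which can release a mature strand from its 5p or 3p arm. The mature strand guides Argonaute to messenger RNAs that pair with its seed, the bases near its 5′ end. The miR-17-92 cluster is best known for promoting proliferation and opposing apoptosis, with Bcl2l11 and Cdkn1a among the well-studied targets of the family, and in the nervous system for its part in neural progenitor growth.

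The mature sequences (RefSeq, GRCr8, 6 of 6 matched by name) are shown because they set which members share targets and how easily a read of one can be told from another. Capitals mark the seed, bases 2 to 8 from the 5′ end.
rno-miR-17-5p: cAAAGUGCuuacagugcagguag
rno-miR-20a-5p: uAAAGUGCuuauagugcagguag
rno-miR-20b-5p: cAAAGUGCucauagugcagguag
rno-miR-93-5p: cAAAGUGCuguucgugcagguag
rno-miR-106b-5p: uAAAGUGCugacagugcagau
rno-miR-18a-5p: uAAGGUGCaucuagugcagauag

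The seed AAAGUGC was carried by 5 members and by no other listed miRNA with a matched RefSeq sequence (331 of 367 matched). miR-18a-5p had the seed AAGGUGC and was the only matched miRNA with it. Counted from the 5′ end, and with the base of miR-17-5p first, miR-20a-5p differed from miR-17-5p by C1U and C12U, and miR-20b-5p by U10C and C12U. miR-93-5p differed from it by U10G, A11U, C12U and A13C. Over the 21 bases of miR-106b-5p the differences were C1U, U10G and G20A. miR-18a-5p stood furthest from miR-17-5p, with C1U, A4G, U9A, A11C, C12U and G20A, and A4G was the change within the seed. How reads fitting several of these near-identical miRNAs were assigned is not given in the sources used here, so counts of the scarce members could include reads of the abundant ones.

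In GRCr8 the miR-17-92 cluster lies on the plus strand at chr15:98587848-98588632, beside Gpc5, and encodes miR-17, miR-18a and miR-20a. The miR-106a-363 cluster lies on the minus strand at chrX:137342777-137343647, beside Gpc3, and encodes miR-20b. The miR-106b-25 cluster lies on the minus strand at chr12:22156641-22157123, within Mcm7, a gene for a subunit of the replicative helicase, and encodes miR-93 and miR-106b. Its coordinates were taken for miR-106b from the mature strands. A second copy of miR-17-5p comes from the X chromosome, and the hairpins are shown because the mature strand, in capitals, is the same in both.
Mir17, chr15:98587848-98587931, plus strand: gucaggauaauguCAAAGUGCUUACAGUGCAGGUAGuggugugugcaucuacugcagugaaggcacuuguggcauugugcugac
Mir106a, chrX:137343570-137343647, minus strand: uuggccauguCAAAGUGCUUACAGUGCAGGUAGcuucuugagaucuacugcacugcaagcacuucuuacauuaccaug
The counts of miR-17-5p are therefore a sum over both loci.

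Total counts ranged from 2083604 to 12468979 in 55 libraries, and 1 TBI library at 2 months (replicate 1) held only 69628. In that library miR-17-5p had 17 counts, and miR-18a-5p and miR-20b-5p had 0, which allows up to 34.4 CPM. CPM is a count divided by its library size after trimmed mean of M-values (TMM) scaling, and the unit of all levels given. Mature miRNAs have nearly the same length, so these values were compared between members without a length correction. That limit covers counting error only, because amplified reads without molecular identifiers are not independent molecules, whereas the 95% intervals of fold changes include the spread between rats. The 8 neuronal miRNAs listed (among them miR-9a-5p, miR-124-5p and miR-128-1-5p) summed to between 150544 and 357967 CPM in every library. Most of that sum was miR-9a-5p, with a median of 199733 CPM over the 55 libraries, followed by miR-218a-5p with 38617 CPM. miR-124-5p had a median of 204 CPM and miR-128-1-5p one of 12.5 CPM, so the sum says little about the scarcer markers.

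The members fell into an abundant and a scarce class. Over the 55 deep libraries miR-93-5p was highest, with a median of 350 CPM (range 267 to 500). miR-20a-5p had a median of 208 CPM (105 to 414) and miR-17-5p one of 168 CPM (108 to 289). The ranges of these 3 overlap between neighbours, and within single libraries the ratio of miR-20a-5p to miR-17-5p ran from 0.856 to 1.66. miR-106b-5p followed with a median of 105 CPM (63.6 to 176), and in each deep library there were 2.55 to 4.38 times as many reads of miR-93-5p, its neighbour in Mcm7. miR-18a-5p, although it lies between miR-17 and miR-20a in the genome, had a median of only 3.63 CPM (1.39 to 6.81), and miR-17-5p was 29.7 to 83.2 times as abundant in each deep library. miR-20b-5p was scarcest at 1.48 CPM (0.186 to 3.77), with a median of 8 counts. The order of the medians by share of all members' reads was 42.8% for miR-93-5p, 24.8% for miR-20a-5p, 19.5% for miR-17-5p, 12.7% for miR-106b-5p, 0.442% for miR-18a-5p and 0.169% for miR-20b-5p.

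The spread between rats of the same group was close to that of other miRNAs. The within-group SD of log2 CPM was 0.225 for miR-93-5p, 0.243 for miR-106b-5p, 0.263 for miR-17-5p and 0.348 for miR-20a-5p, beside a median of 0.285 over the 244 miRNAs tested jointly. It was wider for the scarce members, 0.361 for miR-18a-5p and 0.538 for miR-20b-5p.

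**Figure D1:**
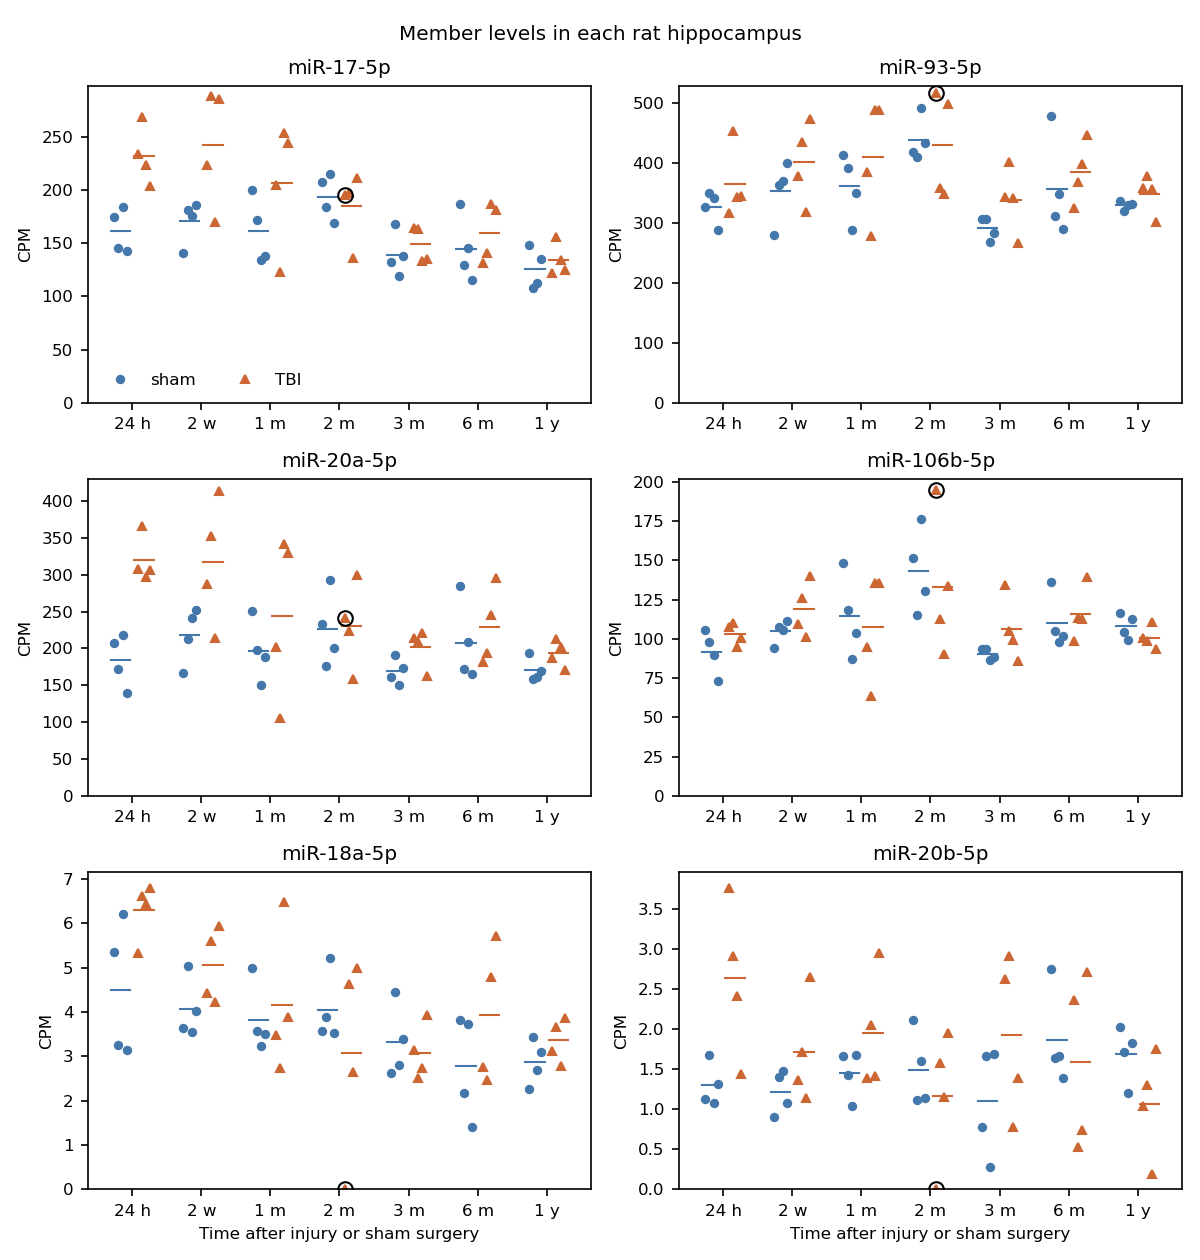
CPM (vertical axes, from 0) of each member in each rat hippocampus by interval (horizontal axes), sham as circles and TBI as triangles, with a horizontal line at each group's mean (n = 4) and a black ring around the library of 69628 counts. At 24 h the TBI triangles of miR-17-5p and miR-20a-5p all lie above the sham circles, and at 2 months those of every member overlap them.

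TBI was compared with sham at each interval with the quasi-likelihood test of edgeR, and p-values were adjusted by Benjamini and Hochberg's method over all miRNAs tested, with a threshold of 0.05. At 24 h miR-20a-5p rose after TBI, and it was the member of the 6 tested that passed (1 of 6, beside 1.72% of all 233 miRNAs tested). Its levels were 307, 366, 297 and 307 CPM in the TBI rats and 208, 172, 218 and 139 CPM in the sham rats. Every TBI rat was above every sham rat. The log2 fold change was 0.81 (SE 0.17, adjusted p = 0.0341). The call was lost when any of the 4 TBI rats or sham replicate 2 was left out (adjusted p between 0.0564 and 0.114), while the fold change stayed between 0.73 and 0.89 over all 8 omissions. With 1 surrogate variable in the fit its adjusted p was 0.0516.

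miR-17-5p and miR-18a-5p, encoded beside miR-20a, had positive differences at 24 h that did not pass. miR-17-5p measured 234, 269, 224 and 204 CPM after TBI against 175, 145, 184 and 143 CPM after sham surgery. These groups did not overlap either, and 2 of the 6 members had all TBI rats above all sham rats, beside 3.86% of all miRNAs tested. Its log2 fold change was 0.54 (SE 0.15), with an adjusted p of 0.219, or 0.0410 in the DESeq2 Wald test. miR-18a-5p measured 5.34, 6.63, 6.44 and 6.81 CPM after TBI (17 to 66 counts) against 5.36, 3.26, 6.20 and 3.15 CPM in sham. The lowest TBI rat lay below the highest sham rats, and the log2 fold change of 0.64 (SE 0.26) had an adjusted p of 0.627.

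miR-20b-5p, of the X-linked cluster, had the widest difference at 24 h and the fewest reads. Its TBI levels were 3.77, 2.91, 2.41 and 1.43 CPM (8 to 29 counts) and its sham levels 1.13, 1.67, 1.08 and 1.31 CPM (4 to 19 counts). The lowest TBI rat lay within the sham range. Its log2 fold change was 0.92 (SE 0.32, adjusted p = 0.411).

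The members of the miR-106b-25 cluster differed little at 24 h. miR-93-5p measured 317, 453.3, 344 and 346 CPM after TBI and 327, 350, 343 and 288 CPM in sham. miR-106b-5p measured 107, 110, 94.7 and 100 CPM after TBI and 105.9, 97.8, 89.8 and 73.0 CPM in sham. Both pairs of groups overlapped. The log2 fold changes were 0.17 (SE 0.15, 95% interval -0.13 to 0.47) and 0.18 (SE 0.15, interval -0.12 to 0.48), each with an adjusted p of 0.980. The median log2 fold change of the 6 members was 0.59, beside -0.01 over all 233 miRNAs tested.

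At 2 weeks the TBI means of miR-17-5p and miR-20a-5p again lay above sham, with more spread between rats than at 24 h. miR-17-5p measured 224, 289, 170 and 286 CPM after TBI against 140, 181, 176 and 186 CPM in sham. miR-20a-5p measured 287, 353, 215 and 414 CPM against 167, 213, 241 and 252 CPM. In both, 3 TBI rats lay above all sham rats and 1, the same animal (replicate 3), lay among them. The log2 fold changes were 0.54 (SE 0.17, adjusted p = 0.215) and 0.57 (SE 0.20, adjusted p = 0.275).

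By the quasi-likelihood test 0 of the 5 members tested at 2 weeks were called, beside 0% of all 227 miRNAs, of which 21 had an unadjusted p under 0.05. Nor did DESeq2 (Wald) or the likelihood ratio test of edgeR call any member. Without replicate 3 of the TBI rats, miR-17-5p passed, with a log2 fold change of 0.69 and an adjusted p of 0.0198. No member had all TBI rats above all sham rats, beside 3.52% of all miRNAs. miR-18a-5p (log2 fold change 0.41, SE 0.19), miR-93-5p (0.21, SE 0.14) and miR-106b-5p (0.22, SE 0.12) also had positive differences, with adjusted p-values of 0.548, 0.681 and 0.681. miR-20b-5p was too low to test at this interval, and likewise at 3 months, 6 months and 1 year.

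At 1 month the TBI rats were divided. miR-17-5p measured 205, 123, 254 and 244 CPM after TBI against 200, 172, 135 and 138 CPM in sham. miR-20a-5p measured 202, 105, 341 and 329 CPM against 251, 198, 150 and 188 CPM. One TBI rat (replicate 2) was the lowest of the 8 for both, and replicates 3 and 4 were the highest. miR-106b-5p was also lowest in replicate 2 (63.6 CPM), but its highest level, 149 CPM, was in a sham rat (replicate 1), above the 136 CPM of TBI replicates 3 and 4.

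The 1 month test called 0 of 6 members, beside 0.417% of all 240 miRNAs, of which 43 had an unadjusted p under 0.05. DESeq2 (Wald) and edgeR (likelihood ratio) called 0 members as well. The log2 fold changes were 0.39 (SE 0.24) for miR-17-5p, 0.34 (SE 0.30) for miR-20a-5p and 0.36 (SE 0.34) for miR-20b-5p. They were 0.22 (SE 0.21) for miR-93-5p, 0.13 (SE 0.29) for miR-18a-5p and -0.06 (SE 0.26) for miR-106b-5p. Adjusted p-values ran from 0.413 to 0.926, and 0 members had all TBI rats above all sham rats, beside 5.42% of all miRNAs.

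From 2 months on, the levels of each member overlapped between TBI and sham. At 2 months miR-20a-5p measured 241, 223, 159 and 299 CPM after TBI, the first of these from 21 counts in the shallow library, against 234, 177, 293 and 201 CPM in sham. Its log2 fold change was 0.01 (SE 0.24, 95% interval -0.46 to 0.48), and those of the other members ran from -0.28 for miR-106b-5p to 0.06 for miR-20b-5p. At 3 months miR-20a-5p measured 214, 209, 221 and 163 CPM against 162, 191, 150 and 173 CPM, with 3 TBI rats above all sham rats and a log2 fold change of 0.28 (SE 0.12, adjusted p = 0.547).

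At 3 months miR-93-5p and miR-106b-5p also had 3 TBI rats above all sham rats, each with a log2 fold change of 0.24 (SE 0.12 and 0.13) and an adjusted p of 0.547. The summed choroid plexus miRNAs (miR-204-5p, miR-211-5p, miR-448-5p and miR-764-5p) ran from 2596 to 20842 CPM in the sham rats of that interval and from 3289 to 4141 CPM in the TBI rats. At 1 year the same sum ran from 2020 to 19382 CPM in the sham rats and from 1718 to 2585 CPM in the TBI rats. The part of such tissue in the 3 month and 1 year differences was not tested. At 6 months the log2 fold changes ran from 0.06 for miR-106b-5p to 0.34 for miR-18a-5p, and at 1 year from -0.11 for miR-106b-5p to 0.22 for miR-18a-5p.

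At 2 months, 3 months, 6 months and 1 year the quasi-likelihood test called 0 members, beside 0% of all miRNAs tested at each of them. The numbers of all miRNAs with an unadjusted p under 0.05 were 20 at 2 months, 13 at 3 months, 10 at 6 months and 18 at 1 year, and DESeq2 (Wald) and edgeR (likelihood ratio) called 0 members. No member had all TBI rats above all sham rats at these intervals, beside 2.54%, 2.73%, 0.446% and 2.67% of all miRNAs. miR-20a-5p at 1 year measured 187, 212, 202 and 171 CPM after TBI and 194, 159, 162 and 169 CPM in sham, with a log2 fold change of 0.16 (SE 0.08, adjusted p = 0.426).

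**Figure D2:**
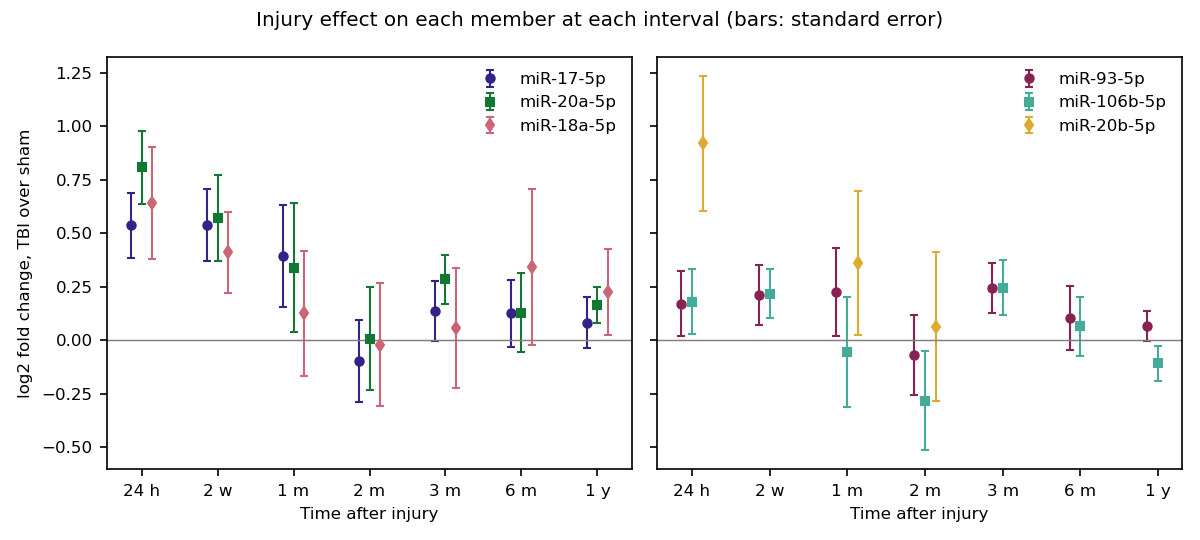
Log2 fold change of TBI over sham (vertical axes) for each member at each interval (horizontal axes), with bars of 1 standard error (n = 4 rats per group), miR-17-5p, miR-20a-5p and miR-18a-5p on the left and the others on the right. miR-17-5p starts at 0.54 and miR-20a-5p at 0.81 at 24 h, and both stand near 0 at 2 months. miR-93-5p and miR-106b-5p stay between -0.28 and 0.24.

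An injury effect common to the 7 intervals was fitted over all 56 libraries, with interval as a covariate. miR-20a-5p and miR-17-5p rose (2 of 6 members, beside 4.51% of all 244 miRNAs tested, or 11, which were all higher after TBI). For miR-20a-5p the common log2 fold change was 0.32 (SE 0.09, adjusted p = 0.0186), a 1.25-fold difference with a 95% interval of 1.11 to 1.42. For miR-17-5p it was 0.24 (SE 0.07, adjusted p = 0.0290), or 1.18-fold (1.07 to 1.30). These libraries include those of the single intervals, so the common effect is not a separate measurement.

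Both calls were lost without either of the first intervals. Without the 24 h libraries the common log2 fold change was 0.23 for miR-20a-5p and 0.18 for miR-17-5p, each with an adjusted p of 0.261. Without the 2 week libraries the values were 0.29 (adjusted p = 0.0863) and 0.20 (adjusted p = 0.167). Without both intervals they were 0.18 (adjusted p = 0.566) and 0.13 (adjusted p = 0.604). The call of miR-17-5p was also lost without the 1 month libraries (adjusted p = 0.0627), and that of miR-20a-5p without the 3 month libraries (adjusted p = 0.0514). With libraries scaled by total count only, neither passed (adjusted p = 0.0771 for miR-20a-5p and 0.135 for miR-17-5p).

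The other 4 members did not pass the common test. The common log2 fold change was 0.25 (SE 0.10, adjusted p = 0.205) for miR-18a-5p and 0.28 (SE 0.15, adjusted p = 0.359) for miR-20b-5p. It was 0.12 (SE 0.06, adjusted p = 0.286) for miR-93-5p, with an interval of 1.01- to 1.18-fold. For miR-106b-5p it was 0.02 (SE 0.07, adjusted p = 0.924), with a 95% interval of 0.923- to 1.11-fold. Whether the effects of the members differ from each other was not tested.

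**Figure D3:**
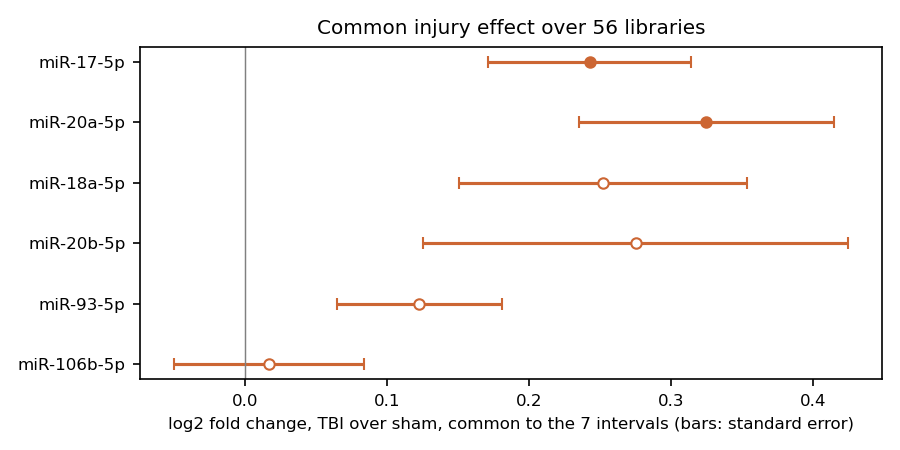
Common log2 fold change of TBI over sham (horizontal axis) for each member over the 56 libraries, with bars of 1 standard error, where filled points had an adjusted p under 0.05. The filled points are miR-17-5p at 0.24 and miR-20a-5p at 0.32, and the bar of miR-106b-5p, at 0.02, spans zero.

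The change of the injury effect with time was tested in the same libraries. For an effect that differs between intervals, 0 of 6 members were called by the quasi-likelihood test (adjusted p from 0.444 to 0.950), beside 2.87% of all 244 miRNAs, of which 40 had an unadjusted p under 0.05. For an effect at 24 h that differs from the mean of the later effects, 0 of 6 were called, beside 1.64% of all miRNAs, of which 21 had an unadjusted p under 0.05. Both counts stayed at 0 under every alternative run. The 24 h effect of miR-20a-5p exceeded the mean later effect by 0.57 on the log2 scale (SE 0.25, adjusted p = 0.447), and that of miR-20b-5p by 0.77 (SE 0.38, adjusted p = 0.542). For miR-17-5p the excess was 0.35 (SE 0.19, adjusted p = 0.835). A call at 24 h and none later therefore does not show that the effect changed.

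The balance between members was described within each library, where library scaling cancels, and miR-17-5p reads here include those of the X-linked copy. At 24 h there were 1.29, 1.14, 1.20 and 1.16 reads of miR-17-5p, miR-18a-5p and miR-20a-5p together for each read of miR-93-5p and miR-106b-5p in the TBI rats. The sham ratios were 0.897, 0.716, 0.945 and 0.790. At 2 weeks the TBI ratios were 1.05, 1.15, 0.927 and 1.15 and the sham ratios 0.8293, 0.848, 0.882 and 0.864. TBI and sham did not overlap at either interval. How often ratios of other miRNAs separate between groups was not examined, for this ratio or for those that follow. At 1 month the TBI ratios ran from 0.673 to 0.962 around sham ratios of 0.726 to 0.811, and from 2 months on the ranges overlapped too. The ratio of miR-20a-5p to miR-17-5p at 24 h was 1.31 to 1.503 after TBI and 0.974 to 1.19 after sham surgery, while at 2 weeks the ranges, 1.22 to 1.45 and 1.18 to 1.37, overlapped. The ratio of miR-93-5p to miR-106b-5p was 3.61 to 4.38 after TBI and 2.79 to 3.38 after sham surgery at 1 month, also without overlap, and 2.95 to 4.13 against 3.09 to 3.95 at 24 h.

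**Figure D4:**
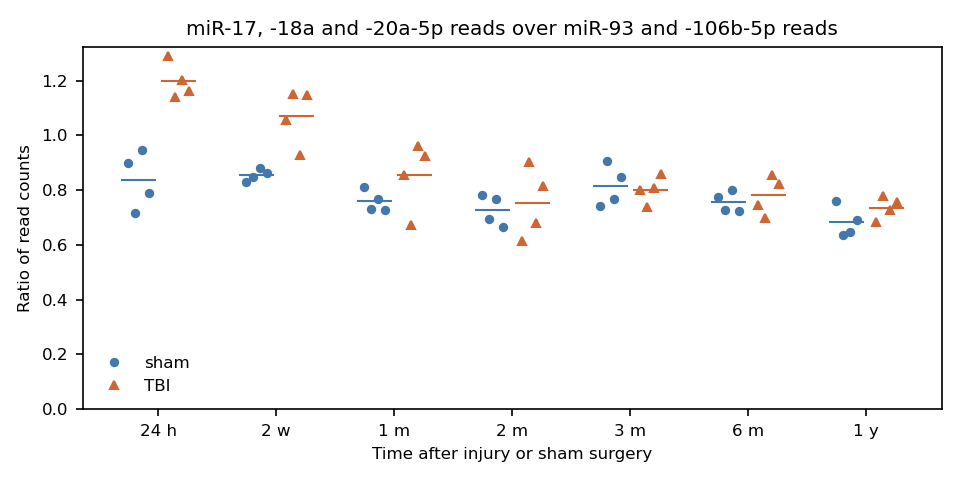
Reads of miR-17-5p, miR-18a-5p and miR-20a-5p divided by reads of miR-93-5p and miR-106b-5p (vertical axis, from 0) in each rat by interval (horizontal axis), with a line at each group's mean (n = 4). The TBI rats lie at 1.14 to 1.29 at 24 h, above the sham rats at 0.716 to 0.945, and the groups are also apart at 2 weeks.

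The other 5p arms of the clusters, from their remaining hairpins, were no more abundant than the scarce members, apart from miR-25-5p with a median of 5.02 CPM. miR-92a-1-5p, the minor arm of the last hairpin of the miR-17-92 cluster, had a median of 8 counts (at most 27). Of the single intervals it was tested only at 24 h and 1 month, and was too low to test at the others. Its common log2 fold change was 0.52 (SE 0.14, adjusted p = 0.0154), and at 24 h, with TBI levels of 4.08, 2.71, 1.88 and 2.51 CPM and sham levels of 1.27, 1.41, 3.51 and 2.36 CPM, it was 0.53 (SE 0.35, adjusted p = 0.980). The common call was lost without the 24 h libraries (adjusted p = 0.0946), the 2 week libraries (0.0592) or the 1 month libraries (0.0627).

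miR-25-5p, the minor arm of the third hairpin in Mcm7, had a median of 26 counts and a common log2 fold change of 0.08 (SE 0.11, adjusted p = 0.838). The remaining 5p arms were too low to test. miR-19b-1-5p reached at most 9 counts, miR-19a-5p at most 2 and miR-363-5p at most 1, while miR-19b-2-5p and miR-92a-2-5p had 0 counts in all 56 libraries. The 3p arms of these hairpins include the abundant strands of miR-19, miR-92a and miR-25. None was found by name in the deposited counts, so they could not be analysed. Of the 367 miRNAs listed there, 309 are 5p arms, 5 are 3p arms and 53 have no arm in their name. Library sizes, and so CPM, therefore rest on the listed miRNAs only.

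The abundant members were correlated with each other across the 55 deep libraries. Shared scaling can add to this, and pairs of other miRNAs were not examined, so the values are given as a description. Pearson's r of log2 CPM was 0.89 between miR-17-5p and miR-20a-5p and 0.81 between miR-93-5p and miR-106b-5p. Between clusters it was 0.77 for miR-20a-5p with miR-93-5p and 0.57 for miR-17-5p with miR-106b-5p. After each library was taken relative to its group mean, r was 0.90, 0.81, 0.89 and 0.81 for the same pairs. The rats that were high for a member of one cluster were thus usually high for the other within a group. For miR-18a-5p r was 0.77 with miR-17-5p, 0.72 with miR-20a-5p, 0.46 with miR-93-5p and 0.33 with miR-106b-5p. For miR-20b-5p it was between 0.28 and 0.42 with the other members. Few counts lay behind the values of miR-18a-5p and miR-20b-5p.

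The miRNAs most like the members in their levels, by Pearson's r with the members' mean log2 CPM over the same 55 libraries, were sought among 236 others. They were miR-15b-5p (r = 0.74), miR-362-5p (0.66), miR-15a-5p (0.57), miR-142-5p (0.53) and miR-155-5p (0.50). Spearman's rho was 0.71, 0.63, 0.56, 0.45 and 0.36, by which miR-142-5p ranked 6 and miR-155-5p 19 among the 236. Relative to the group means r was 0.66, 0.62, 0.76, 0.38 and 0.12, so the likeness of miR-155-5p lay mostly between groups. By that measure miR-142-5p ranked 35 and miR-155-5p 91. In the common test miR-15b-5p (log2 fold change 0.19, adjusted p = 0.286), miR-362-5p (0.11, adjusted p = 0.680) and miR-15a-5p (-0.0008, adjusted p = 0.993) were not called. miR-142-5p, abundant in blood-lineage cells, rose in that test (log2 fold change 0.44, adjusted p = 3.97e-07). So did miR-155-5p, induced in activated immune cells (1.24, adjusted p = 1.77e-07).

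Leukocyte and microglia miRNAs were described beside the members. The list of 5 was chosen with earlier results of these data known, so its number of calls is only a description. In the common test miR-142-5p, miR-155-5p, miR-146a-5p and miR-223-5p rose (4 of 5, beside 4.51% of all 244 miRNAs called). miR-150-5p had a log2 fold change of 0.03 (adjusted p = 0.863). The median log2 fold change of the list was 0.65, beside -0.01 over all 244 miRNAs. None of the 5 was at 0 in every library. Medians over the 55 deep libraries were 974 CPM for miR-150-5p, 800 CPM for miR-146a-5p and 144 CPM for miR-142-5p. They were 8.89 CPM for miR-155-5p and 0.546 CPM for miR-223-5p, so the sum of the list says little about these scarcer markers. The summed level of the list at 24 h was 2027 to 2874 CPM after TBI and 1857 to 3276 CPM in sham. It was 1866 to 3458 against 1561 to 1891 CPM at 2 weeks, and 2609 to 3332 against 1555 to 1741 CPM at 1 month. At 2 months it was 1994 to 2814 against 1512 to 1674 CPM, and the TBI libraries there include the shallow one of 69628 counts. The ranges of the sum were apart at 1 month and 2 months and overlapped at 24 h, 2 weeks, 3 months, 6 months and 1 year. How often sums of 5 other miRNAs separate between groups was not examined. At 24 h, where miR-20a-5p was called, miR-155-5p had a log2 fold change of 2.76 (adjusted p = 1.39e-05), its highest of the 7 intervals. The others tested at 24 h were not called. They were miR-142-5p (0.54, adjusted p = 0.271), miR-146a-5p (0.43, adjusted p = 0.579) and miR-150-5p (-0.29, adjusted p = 0.980). The median of the 4 of the list tested was 0.49, and miR-223-5p was too low to test at any single interval. The part of these cells in the members' differences was not tested, and in bulk tissue more cells of a type and more RNA per cell cannot be told apart.

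In the sham rats alone, 3 of 6 members differed between intervals, beside 27.1% of all 240 miRNAs. These were miR-106b-5p (adjusted p = 0.0171), miR-93-5p (0.0331) and miR-17-5p (0.0466). Mean sham levels of miR-106b-5p ran from 90.3 ± 3.67 CPM (SD, n = 4) at 3 months to 143 ± 26.6 CPM at 2 months, and those of miR-93-5p from 292 ± 18.9 CPM to 438 ± 37.2 CPM at the same intervals. miR-17-5p was lowest at 1 year (126 ± 19.3 CPM) and highest at 2 months (194 ± 21.0 CPM). miR-20a-5p (adjusted p = 0.273), miR-18a-5p (0.316) and miR-20b-5p (0.421) were not called. Without sham replicate 3 at 2 months, 0 of 6 were called, with adjusted p-values of 0.0644, 0.0866 and 0.0783 for miR-106b-5p, miR-93-5p and miR-17-5p. Whether the libraries of an interval were prepared or sequenced together is not given in the sources used here, and its part in these differences was not tested.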

How the data were processed

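Total RNA from 56 rat hippocampi, 1 library each, was made into small RNA libraries with the NEBNext kit. The authors demultiplexed with bcl2fastq 2.20.0.422 (per the labels), removed adapters and quantified mature miRNAs of miRBase with miRDeep2, and deposited the raw counts, not normalized. All columns were matched to samples by title (0 left out). The sequencing run is not in the labels and was not a covariate. The labels do not say that libraries came from separate animals, but the study counts 1 rat per library. If not, p-values measure only the spread between libraries.

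In R 4.3.3 with edgeR 4.0.16, each interval was fitted on its own 8 libraries after filterByExpr and TMM scaling, with the quasi-likelihood test (legacy = FALSE) and Benjamini-Hochberg adjustment over all miRNAs tested. Common, time and sham comparisons used joint fits. Standard errors are the log2 fold change over the square root of F, and 95% intervals are 1.96 standard errors either side. That multiple belongs to a normal distribution, so with 4 rats per group the intervals are too narrow. For example, miR-18a-5p at 2 weeks had an interval of 0.04 to 0.78 beside an unadjusted p of 0.0555 by the quasi-likelihood test. Log2 CPM had a prior count of 2. Scripts were tested on simulated counts. No pair of libraries of a group agreed within sampling noise (84 pairs, chi-square at least 17.5 times its degrees of freedom).

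The named miRNAs were the 6 members, the other arms of their clusters in the file, 6 lists of cell type markers and the 5 miRNAs most like the members. Members and lists were chosen with earlier results of these data known. Alternatives were DESeq2 1.42.0 (size factors and tests), total count scaling, other filters, the likelihood ratio test, 1 surrogate variable (sva 3.50.0), all 56 libraries in each fit, and leaving out each rat. The older quasi-likelihood fit, leaving out a rat in the joint fits, leaving out intervals, and the alternatives for miR-92a-1-5p were added after the data were seen. Figures used matplotlib 3.10.9 and pandas 2.3.3 in Python 3.11.15.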

Additional observations from a re-analysis of the deposited data

Results flagged for a closer look

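miR-20a-5p in TBI replicate 2 at 24 h, at 366 CPM from 3645 counts, stood apart from the other 3 TBI rats of that interval, which measured 297 to 307 CPM, by more than the limit of Dixon's test. It was 1 of 84 groups of 4 so marked, and chance marks about 1 in 20, or 4.2 of 84. Without this rat the log2 fold change of miR-20a-5p at 24 h was 0.75 and its adjusted p by edgeR was 0.0968.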

How the results depend on the processing

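At 24 h the number of members called was 1 and became 2 with the Wald test of DESeq2 (miR-17-5p, adjusted p = 0.0410), 0 with 1 surrogate variable (miR-20a-5p, adjusted p = 0.0516), and 0 to 1 with a rat left out. At 2 weeks it was 0 to 1 with a rat left out. In the common test the number was 0 with total count scaling (adjusted p = 0.135 for miR-17-5p and 0.0771 for miR-20a-5p), 0 without 24 h, 0 without 2 weeks, 0 without both, 1 without 1 month, 1 without 3 months, and 1 to 2 with a rat left out. miR-20a-5p was called in 56 of 56 such fits, and miR-17-5p in 49, being lost without sham 24 h replicate 2, TBI 2 weeks replicates 2 and 4, sham 1 month replicate 3, TBI 1 month replicates 3 and 4, or sham 3 months replicate 1 (adjusted p between 0.0505 and 0.0703). In sham rats the number called was 1 with at least 10 counts in every deep library and 0 to 3 with a rat left out, being 0 without sham 2 months replicate 3 and 1 (miR-106b-5p) without sham 3 months replicates 1, 3 or 4 or sham 1 year replicate 2. Of these 28 fits, miR-106b-5p was called in 27, miR-93-5p in 22 and miR-17-5p in 16 (adjusted p up to 0.0644, 0.0866 and 0.0844), and with no filter miR-93-5p was lost (adjusted p = 0.0522).

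Small uncalled differences changed sign. With a rat left out, miR-106b-5p ranged from -0.26 to 0.085 at 1 month (0.033 with 1 surrogate variable), from -0.0041 to 0.16 at 6 months and from -0.015 to 0.041 in the common test (-0.025 without 24 h, -0.0046 without 2 weeks, -0.017 without 3 months, -0.045 without both early intervals). miR-18a-5p ranged from -0.24 to 0.25 at 1 month, -0.16 to 0.20 at 2 months (0.0041 with no filter, 0.0025 with all 56 libraries) and -0.20 to 0.22 at 3 months (-0.069 with DESeq2, -0.0075 with all 56). At 2 months the ranges were -0.17 to 0.053 for miR-17-5p, -0.18 to 0.18 for miR-20a-5p (-0.14 with total counts, -0.0018 with at least 10 counts), -0.10 to 0.27 for miR-20b-5p (-0.13 with total counts) and -0.16 to 0.037 for miR-93-5p. The 24 h excess of miR-93-5p ranged from -0.051 to 0.14. The cause of these changes was not tested. Over the alternatives for the members and miR-92a-1-5p, 2027 values kept direction and side of the threshold, 49 fell short of it, 2 passed it and 39 changed sign.

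With the S number of the labels as a replicate block at 1 year, 0 members were called, as without it. These numbers are not stated to pair rats, and same-number libraries correlated at 0.116, 0.0238, 0.412 and 0.103. Depth limits miR-18a-5p and miR-20b-5p, with medians of 18.5 and 8 counts.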
